A study of Mus musculus with 9 samples.

Results

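The cholesterol synthesis and sterol export genes are 32 mouse genes that make cholesterol, sense it, move it inside the cell and send it out. They were listed by name, but with earlier results of these data known, so the list is not independent of the values. A gene was taken up if a probe set of the deposited table carries its symbol, current or older, and no other symbol; of several such probe sets the one with the highest mean over the 9 arrays stood for the gene. By this rule 30 of the 32 genes had a probe set, out of 18161 genes in the table: all 18 of synthesis, all 5 regulators, 4 of 5 genes of export and of the liver X receptor (LXR), and 3 of 4 genes of storage and transport. Nr1h2 and Soat1 were not analysed here. The 30 genes also passed the filter on low values described below, Idi2 only through the group in which it is high.

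The series deals with T cell acute lymphoblastic leukemia in the mouse and with the non-malignant effects of NOTCH1 excess. RNA of sorted cells was hybridized to 9 Affymetrix arrays: 3 are labelled Control, 3 Abnormal non-malignant and 3 NIC Tumor. The labels give no genotype, strain, age, promoter or sorted population, do not spell out NIC, and do not say whether samples came from separate animals, so every p-value measures only the spread between these samples, which may be technical. The T cell genes Cd3e, Cd4 and Cd8a exceeded the 40th percentile on all 9 arrays, and in a bulk sample fewer cells of a type and less RNA per cell cannot be told apart.

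Animal cells build cholesterol from acetyl-CoA: the mevalonate steps lead to isopentenyl diphosphate, which Idi1 and its paralogue Idi2 isomerize, farnesyl diphosphate is joined to squalene, and squalene is closed to lanosterol and trimmed to cholesterol. When sterol is scarce, the escort Scap lets the transcription factors Srebf1 and Srebf2 leave the endoplasmic reticulum and switch these enzymes on, and Insig1 and Insig2 hold Scap back when sterol is plentiful. Oxidized sterols in turn activate LXR, whose targets Abca1 and Abcg1 pump cholesterol out of the cell and whose target Mylip removes lipoprotein receptors; dividing lymphocytes are known to raise synthesis and lower export.

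RefSeq (build GRCm38.p6) gave a promoter for 26 of the 32 genes, though not for Fdps, Fdft1, Sqle, Abcg1, Stard4 or Npc1. Windows of 250 bases upstream of the annotated start were searched on both strands for the NF-Y box CCAAT, the sterol regulatory element TCACNCCAC, the Rbpj core GTGGGAA, which is the DNA motif of the Notch partner Rbpj, and the E box CACGTG, which reads alike on both strands. Windows of Idi1, Idi2 and Abca1 are shown because the results turn on these genes, and that of Hmgcs1 because it was the 1 synthesis window with the sterol element. Capitals mark the matched letters, with ATTGG and TTCCCAC standing for the reverse strand of the NF-Y box and the Rbpj core. The windows lie at chr13:8885356-8885605 (plus strand) for Idi1, chr13:8952613-8952862 (plus) for Idi2, chr13:119690101-119690350 (plus) for Hmgcs1 and chr4:53159896-53160145 (minus) for Abca1.
Idi1: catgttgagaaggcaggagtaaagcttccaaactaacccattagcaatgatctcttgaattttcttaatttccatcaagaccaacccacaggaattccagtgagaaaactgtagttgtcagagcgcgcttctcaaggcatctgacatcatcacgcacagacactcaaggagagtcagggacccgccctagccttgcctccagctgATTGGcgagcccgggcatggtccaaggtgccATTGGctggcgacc
Idi2: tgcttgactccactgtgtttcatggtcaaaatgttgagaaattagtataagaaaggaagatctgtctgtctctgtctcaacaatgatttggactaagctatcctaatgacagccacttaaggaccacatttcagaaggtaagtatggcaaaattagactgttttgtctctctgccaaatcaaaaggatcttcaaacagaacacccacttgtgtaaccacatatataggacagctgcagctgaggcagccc
Hmgcs1: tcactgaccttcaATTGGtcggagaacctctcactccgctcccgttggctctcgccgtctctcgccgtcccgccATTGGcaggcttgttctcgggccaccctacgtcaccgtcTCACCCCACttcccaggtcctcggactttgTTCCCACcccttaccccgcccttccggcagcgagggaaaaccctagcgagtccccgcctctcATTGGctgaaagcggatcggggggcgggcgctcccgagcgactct
Abca1: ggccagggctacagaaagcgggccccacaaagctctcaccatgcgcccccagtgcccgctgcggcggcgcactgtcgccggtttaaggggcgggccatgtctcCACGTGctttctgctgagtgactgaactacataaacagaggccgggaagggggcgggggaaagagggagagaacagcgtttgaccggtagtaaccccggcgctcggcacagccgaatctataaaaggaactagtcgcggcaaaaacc

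The 15 synthesis genes with an entry have 18 promoter windows, since RefSeq lists several starts for some, and the NF-Y box stood in 14 of these 18 windows, against 33.8% of all 32851 promoter windows in the RefSeq table. By gene, 14 of the 15 had a window with the box. Idi2 was the synthesis gene whose window lacked these letters. Its neighbour and paralogue Idi1 had the box at bases -45 to -41 and -14 to -10 from the start, and the GC content was 40.8% in the Idi2 window and 51.2% in that of Idi1. The sterol element was found in 1 of the 18 synthesis windows (1.05% of all windows), the Rbpj core in 3 of 18 (Hmgcs1, Nsdhl and Sc5d; 5.42% of all windows) and the E box in 3 of 18 (Dhcr7, Hsd17b7 and Sc5d; 6.02% of all windows). Abca1 had an E box at bases -147 to -142. A match describes the letters of the window and not a bound site.

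All levels are log2 values as deposited, so a difference of 1 is a 2-fold change, and levels of different probe sets are not set against each other. Tests covered the 13288 genes that exceeded the 40th percentile of all probe sets, 5.14 to 5.30 by array, on 3 or more of the 9 arrays. It was called when the adjusted p was under 0.05 (limma, Benjamini-Hochberg over all genes tested). Array medians ran from 5.67 to 5.77, and precision is limited by how few arrays there are. Several arrays stood apart from their group. Non-malignant arrays 2 and 3 were nearly alike (SD of their gene differences 0.16, 0 genes 2-fold apart, against 0.3 and 121 genes for the next closest pair), so results are also given with the pair as 1 sample. Tumor 1 resembled the non-malignant arrays (SD 0.46 to 0.47) more than the other tumors (0.63 and 0.79), and control 2 was the 1 array with the Y-linked gene Eif2s3y. Tumor 3 lay farthest from the controls (SD 0.96 to 1.05) and from the non-malignant arrays (0.89 to 0.93). Its 40th percentile was the highest (5.30), and its values had the smallest SD (1.96).

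Against the controls, synthesis genes stood higher in the non-malignant samples, led by Idi2, and the exporter Abca1 fell. Of the 18 synthesis genes 4 rose (Idi2, Idi1, Mvd and Ebp), 0 fell and 14 did not pass the test; 2.87% of all genes tested were called higher in this comparison and 0.655% lower, or 3.53% in either direction. The median log2 difference of the synthesis genes was 0.48, beside 0.01 over all genes, and 17 of the 18 lay above 0, as did 51.3% of all genes. In 7 of them all 3 non-malignant arrays lay above all 3 controls, which held for 17.0% of all genes. With non-malignant arrays 2 and 3 counted as 1 sample, 0 of the 17 synthesis genes then tested were called and Idi2 dropped below the filter, while the median was 0.45. Without control 2 the median was 0.33.

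Idi2 encodes a second isopentenyl diphosphate isomerase, and outside this pattern its probe set stayed near the dim end of the array. Its values were 4.26, 4.31 and 4.60 in the controls, 8.42, 8.62 and 8.51 in the non-malignant samples and 4.59, 4.82 and 4.87 in the tumors. The 3 non-malignant arrays were far above all others, while 0 of 3 controls and 0 of 3 tumors reached the 40th percentile of their array. The fitted difference from the controls was 4.12 ± 0.14 (SE, n = 3 per group; limma, adjusted p = 9.62e-07). Measured against the 40th percentile of the control arrays in place of the dim control values, Idi2 was at least 9.95-fold higher. It was the 12th highest difference of 13288 genes. Since the gene passed the filter only through the group where it is high, it was also tested with no filter. With arrays 2 and 3 as 1 sample and no filter the difference was 4.10 (limma, adjusted p = 3.53e-05). Over 19 alternatives, with or without the filter, it was called each time, with differences of 4.01 to 4.23 and adjusted p up to 3.85e-05. Most of the 19 kept the filter, and filtered fits in which Idi2 dropped out are not among them. The count of calls is therefore no separate support. Only 1 probe set carries Idi2, and whether RNA of its paralogue Idi1 binds it was not tested.

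Idi1, the widely expressed isomerase of the pathway, had 8.56, 7.99 and 8.80 in the controls, 9.55, 9.86 and 9.87 in the non-malignant samples and 9.13, 9.62 and 9.33 in the tumors. All 3 controls lay below the other 6 arrays, and the non-malignant and tumor ranges overlapped. The non-malignant samples exceeded the controls by 1.30 ± 0.23 (adjusted p = 0.0143), or 2.46-fold. The call was lost without non-malignant array 2 (adjusted p = 0.0895), without array 3 (0.086) and with the pair as 1 sample (0.0866). On its second probe set the difference was 1.52 and the adjusted p 0.0928.

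Mvd, which makes isopentenyl diphosphate from diphosphomevalonate, had 6.71, 6.43 and 6.95 in the controls, 7.98, 7.53 and 7.43 in the non-malignant samples and 7.04, 7.42 and 7.14 in the tumors. The 3 groups did not overlap, with the tumors between the others. Mvd was 0.95 ± 0.20 higher in the non-malignant samples than in the controls (adjusted p = 0.0334). Its second probe set gave 0.55 (adjusted p = 0.58) there and 1.03 for tumors over controls, so the probe sets do not give the same order of groups.

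Ebp, the sterol isomerase that shifts the double bond of zymosterol, had 8.69, 8.56 and 8.80 in the controls, 9.35, 9.50 and 9.36 in the non-malignant samples and 8.98, 9.08 and 8.88 in the tumors. Again the groups did not overlap and the tumors lay between. The difference of the non-malignant samples from the controls was 0.72 ± 0.15 (adjusted p = 0.0295). The calls of Mvd and Ebp were lost when any 1 control or any 1 non-malignant array was left out, and with non-malignant arrays 2 and 3 as 1 sample (adjusted p = 0.0979 and 0.149). Their differences stayed between 0.78 and 1.07 for Mvd and between 0.66 and 0.78 for Ebp when single arrays were left out.

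**Figure D1:**
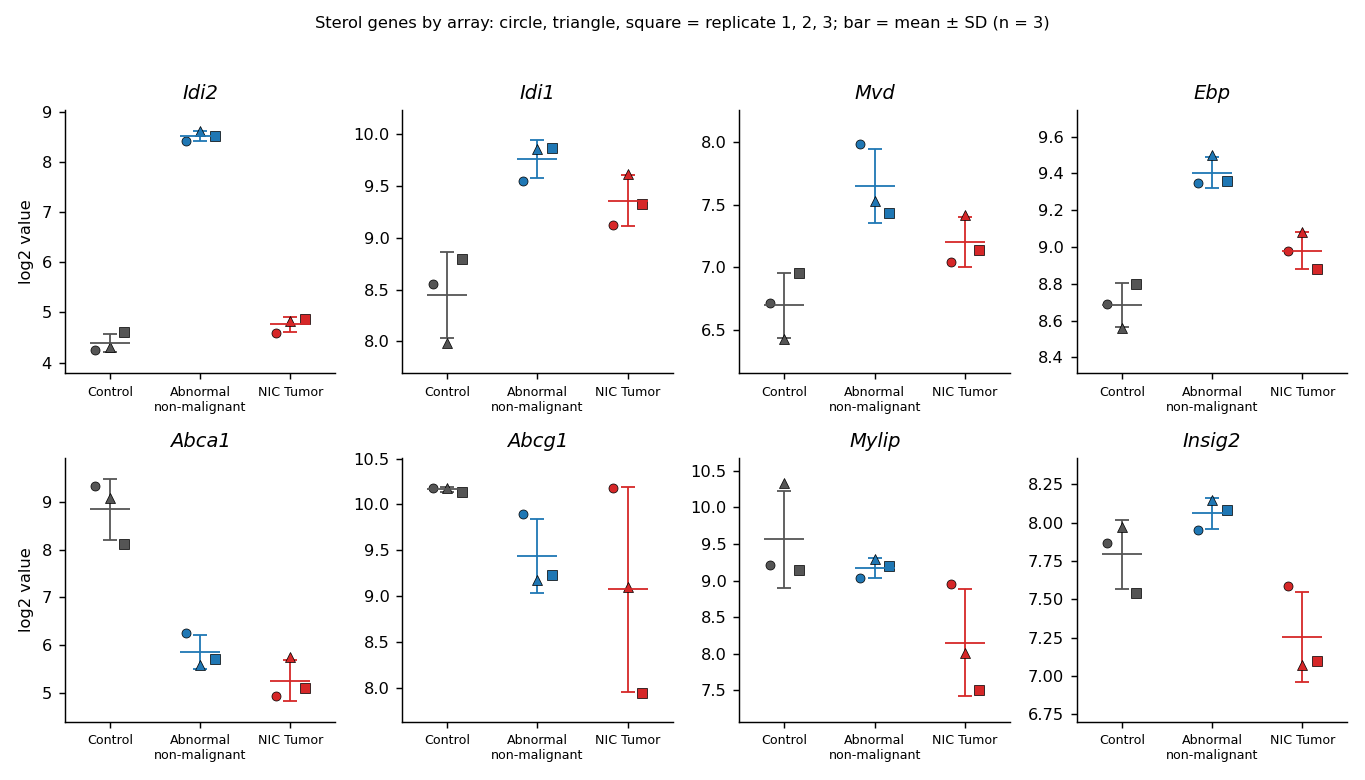
Log2 values (vertical axis, own scale in each panel) of 8 sterol genes by group, with 1 symbol per array, a circle, triangle or square for replicates 1, 2 and 3, and the mean ± SD over 3 arrays as bars. The non-malignant samples reach 8.42 to 8.62 for Idi2 while controls and tumors stay at or below 4.87, and Abca1 is at 8.12 to 9.34 in the controls and at or below 6.26 elsewhere.

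The other 14 synthesis genes did not pass the test, and their differences between non-malignant samples and controls ran from -0.12 to 0.80. Early in the pathway, Hmgcs1, which condenses acetoacetyl-CoA and acetyl-CoA, was at 9.39, 8.75 and 9.84 in the controls and 10.08, 10.00 and 9.79 in the non-malignant samples, a difference of 0.63 (adjusted p = 0.507). The kinases Mvk and Pmvk, which phosphorylate mevalonate in turn, differed by 0.18 and 0.42, and farnesyl diphosphate synthase (Fdps) by 0.59. Around squalene the differences were small: 0.42 for Fdft1, which makes it, 0.15 for Sqle, which oxidizes it, and 0.22 for Lss, which closes the ring. Among the enzymes that trim lanosterol, Cyp51, its demethylase, had the highest uncalled difference at 0.80 (adjusted p = 0.348). Its controls were at 6.22, 5.37 and 6.34 and its non-malignant values at 6.19, 7.14 and 6.99. Msmo1, which removes the C4 methyl groups, was at 7.38, 7.04 and 7.03 in the controls and 7.70, 8.27 and 7.74 in the non-malignant samples; the groups did not overlap, and the difference of 0.75 came with an adjusted p of 0.101. Nsdhl, which acts with Msmo1 on the same carbon, differed by 0.53 (adjusted p = 0.216), again without overlap. Tm7sf2 (0.17), Sc5d (0.15), Dhcr7 (0.26) and Hsd17b7 (-0.12), a set of reductases, a desaturase and a dehydrogenase late in the pathway, were closer to 0.

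The level of synthesis genes also varied between arrays of 1 group. Relative to the control mean of each gene, the median of the 18 genes was 0.05, -0.28 and 0.21 on controls 1, 2 and 3, 0.30, 0.65 and 0.47 on the non-malignant arrays, and 0.08, 0.40 and 0.46 on the tumors. Control 2 was the lowest and control 3 the highest of the 18-gene medians among controls, and tumor 1 lay below control 3. All genes tested had array medians of -0.02 to 0.09 on the same scale. Control 2 was the lowest control in 13 of the 18 synthesis genes (72.2%), against 34.6% of all genes. Non-malignant array 1 was the lowest of its group in 14 of 18 (77.8%, against 36.9%), and tumor 1 likewise in 14 of 18 (77.8%, against 44.8%). Without Idi1 and Idi2 the medians of the 16 remaining genes were 0.19, 0.50 and 0.43 on the non-malignant arrays.

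**Figure D2:**
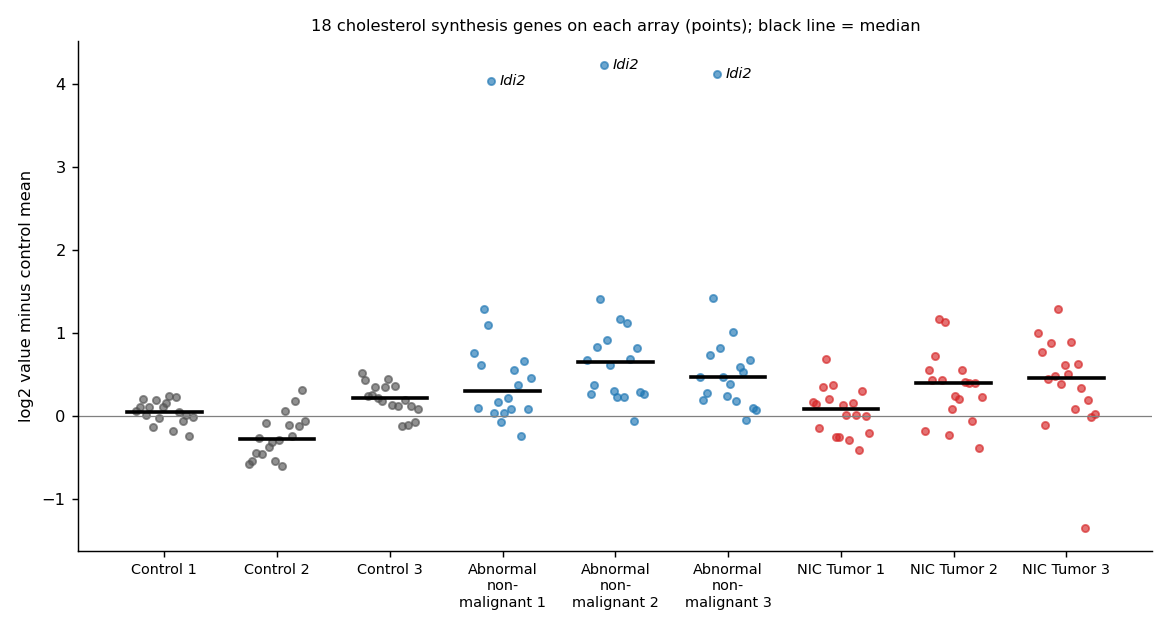
Log2 value minus the control mean of the gene (vertical axis) for the 18 synthesis genes on each of the 9 arrays, 1 point per gene, with the median as a black line. The medians run from -0.28 on control 2 to 0.65 on non-malignant array 2, and Idi2 stands above all other genes on the 3 non-malignant arrays.

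In the tumors, 1 synthesis gene rose above the controls, Idi1, 0 fell and 17 did not pass; 8.49% of all genes were called higher in this comparison and 7.19% lower (15.7% in either direction), so this share is not above the background. The median of the 18 synthesis genes was 0.29, beside 0.06 over all genes, and 15 of 18 lay above 0 (56.4% of all genes). In 4 of them the groups did not overlap, with the tumors higher, against 18.2% of all genes. Without control 2 the median was 0.14.

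Idi1 was 0.91 ± 0.23 higher in the tumors than in the controls (adjusted p = 0.0298). This call was lost without control 1 (adjusted p = 0.0673), control 2 (0.0926), non-malignant 2 or 3 (0.053 each), tumor 2 (0.0945) or tumor 3 (0.0538), and its second probe set gave 0.42 (adjusted p = 0.482). Fdps, which builds the farnesyl diphosphate used for sterols and for protein prenylation, was at 9.25, 8.68 and 9.23 in the controls and 9.43, 10.18 and 10.34 in the tumors. Its groups did not overlap, but the difference of 0.93 ± 0.31 did not pass the test (adjusted p = 0.074). Mvd differed by 0.51 (adjusted p = 0.123), Mvk by 0.49 (0.211), Ebp by 0.30 (0.207) and Hsd17b7 by -0.61 (0.169). For Idi2 the tumors were 0.37 ± 0.14 from the controls (adjusted p = 0.113), with both groups under the 40th percentile. The remaining 11 synthesis genes ran from -0.14 to 0.39.

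Set against the non-malignant samples, the tumors had 1 synthesis gene lower (Idi2), 0 higher and 17 that did not pass, where 2.7% of all genes were called lower and 1.53% higher (4.23% in either direction). The synthesis median was -0.33, beside 0.03 over all genes, and 3 of 18 lay above 0, against 53.5% of all genes. The groups did not overlap in 4 of them, with the tumors lower, against 14.8% of all genes. Idi2 was 3.75 lower on the log2 scale in the tumors (log2 difference -3.75 ± 0.14, adjusted p = 4.17e-06), or at least 9.78-fold when the 40th percentile of the tumor arrays replaces their dim values. It had the 8th lowest difference of 13288 genes. Over 19 alternatives the difference was -3.81 to -3.67, called each time (limma, adjusted p up to 0.000499). Here too Idi2 passed the filter only through the non-malignant arrays. Most of the 19 kept that filter, and filtered fits in which Idi2 dropped out are not among them, so the count is no separate support. Idi2 belonged to 10 genes that were at least 8-fold higher in the non-malignant samples than in controls and at least 8-fold lower in the tumors than in the non-malignant samples. The other 9 were Hey1 and Ptcra, which are Notch-responsive, the interferon-responsive Ifit1, Ifi209, Ifi27l2a and Rtp4, and Scara3, Scn2b and Tm4sf5. Both conditions share the non-malignant arrays, and the fold of 8 was chosen after the values were seen.

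Idi1 and Idi2 lie side by side on chromosome 13. Among 7 protein-coding genes in a row there, themselves included, they were the only ones called in non-malignant samples against controls. With 3.53% of all genes called, the lack of calls among the others is near the background. In Gtpbp4 and Dip2c all 3 non-malignant arrays also lay above all 3 controls, which held for 17.0% of all genes. In chromosomal order, Adarb2 differed by -0.13 between non-malignant samples and controls, Wdr37 by 0.15, Idi1 by 1.30, Idi2 by 4.12, Gtpbp4 by 0.64 (adjusted p = 0.29), Larp4b by 0.03 and Dip2c by 0.87 (adjusted p = 0.63). For the tumors over the controls, Gtpbp4 differed by 0.73 (adjusted p = 0.0791) and Idi1 was the 1 gene called.

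**Figure D3:**
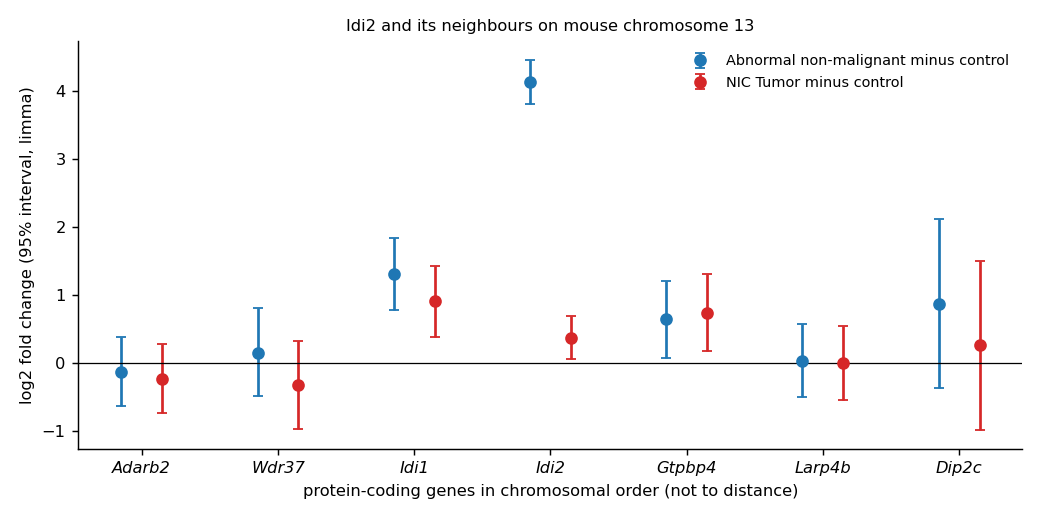
Log2 fold change with its 95% interval (vertical axis; limma, 3 arrays per group) of Idi2 and its protein-coding neighbours, in chromosomal order and not to distance, for non-malignant samples (blue) and tumors (red) over controls. Idi2 stands at 4.12 in the non-malignant samples and at 0.37 in the tumors, while Adarb2, Wdr37 and Larp4b lie between -0.32 and 0.15.

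Among the regulators of the pathway 0 of 5 passed limma's test between non-malignant samples and controls (0 at an unadjusted p under 0.05) and 0 of 5 between tumors and controls (3 at an unadjusted p under 0.05). With 3.53% and 15.7% of all genes called in these comparisons, a count of 0 among 5 genes is near the background. Of all 13288 genes tested, 1765 and 4277 had an unadjusted p under 0.05 in limma in these comparisons. Srebf2, the main activator of cholesterol synthesis, was at 10.17, 9.08 and 10.18 in the controls, 10.12, 9.92 and 9.72 in the non-malignant samples and 9.45, 10.00 and 9.48 in the tumors. Control 2 was the lowest of the 9 arrays, and the 3 groups overlapped. The log2 difference from the controls was 0.11 for the non-malignant samples (95% interval -0.57 to 0.79) and -0.17 for the tumors.

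Srebf1, whose products act mainly on fatty acid genes, was at 9.90, 9.39 and 9.73 in the controls, 10.08, 9.68 and 9.41 in the non-malignant samples and 9.65, 9.54 and 9.50 in the tumors. Its groups overlapped as well, with differences of 0.05 (95% interval -0.42 to 0.52) and -0.11. For both factors the sign of the small non-malignant difference depends on the scaling: with the arrays set to a common median it was -0.06 for Srebf1 and rounded to 0.00, on the negative side, for Srebf2.

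Scap, their escort, was at 9.51, 9.07 and 9.32 in the controls, 9.67, 9.43 and 9.43 in the non-malignant samples and 9.92, 9.83 and 9.53 in the tumors. All 3 tumors lay above all 3 controls, yet the difference of 0.46 did not pass (adjusted p = 0.117), and a second, dim probe set gave -0.31. Insig1, itself a target of the factors it restrains, was at 7.94, 7.39 and 8.36 in the controls, 7.91, 7.23 and 7.04 in the non-malignant samples and 7.46, 7.38 and 6.17 in the tumors. The groups overlapped, with differences from the controls of -0.51 (adjusted p = 0.738) and -0.89 (adjusted p = 0.147).

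Between tumors and non-malignant samples 1 of 5 regulators was called, where 2.7% of all genes were called lower and 4.23% in either direction. This was Insig2, the second retention protein, the 1 regulator called in any comparison. It stood at 7.87, 7.97 and 7.54 in the controls, 7.95, 8.15 and 8.08 in the non-malignant samples and 7.59, 7.07 and 7.10 in the tumors. All 3 tumors lay below all 3 non-malignant samples, by 0.81 (log2 difference -0.81 ± 0.19, adjusted p = 0.0493). Of the 9 fits that left out 1 array, the call was kept only in that without tumor 1, with adjusted p between 0.0648 and 0.193 in the other 8. The 2 other probe sets of Insig2 gave -0.41 and -0.02.

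Export went the other way from synthesis, through Abca1. Of the 4 measured genes of export and LXR, 1 fell in the non-malignant samples (Abca1), 0 rose and 3 did not pass, and in the tumors 2 fell (Abca1 and Mylip), 0 rose and 2 did not pass. The background for a fall is the 0.655% and 7.19% of all genes given above. Between tumors and non-malignant samples 0 of the 4 passed limma's test (1 at an unadjusted p under 0.05). Of all 13288 genes tested, 4.23% were called there, and 3442 had an unadjusted p under 0.05 in limma. All 3 arrays lay below all 3 controls for 2 of the 4 genes in each comparison, which held for 9.16% of all genes in the non-malignant samples and 14.3% in the tumors. The median log2 difference of the 4 genes was -0.56 in the non-malignant samples and -1.25 in the tumors, and the latter moved between -1.73 (without tumor 1) and -0.81 (without tumor 3).

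Abca1, the transporter that loads cholesterol onto apolipoprotein A-I, was at 9.34, 9.09 and 8.12 in the controls, 6.26, 5.59 and 5.70 in the non-malignant samples and 4.92, 5.74 and 5.10 in the tumors. The 3 controls stood clear of the other 6 arrays, and the non-malignant and tumor ranges overlapped. Abca1 fell by 3.0 on the log2 scale (difference -3.0 ± 0.34, adjusted p = 0.00119), or 8.0-fold, in the non-malignant samples, the third lowest difference of 13288 genes. In the tumors it fell by 3.60 (difference -3.60 ± 0.34, adjusted p = 0.000405), at least 11.0-fold with the 40th percentile in place of dim tumor values, since 1 of 3 tumors lay above it. Tumors and non-malignant samples differed by -0.60 (95% interval -1.36 to 0.17, adjusted p = 0.288). Both calls were kept under each of 19 alternatives, with non-malignant arrays 2 and 3 as 1 sample included (-2.90, adjusted p = 0.0112). The alternatives refit the same arrays, and several leave the compared means unchanged, so the count is no separate support. The size of the fall depends on the probe sets: averaging all 3 probe sets of Abca1 gave -1.46 and -1.64. The second read 6.42, 6.41 and 5.17 in the controls and 4.78 to 5.12 on the other 6 arrays, and the third was below the 40th percentile on all 9 arrays.

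Abcg1, which passes sterol on to high-density lipoprotein, was at 10.18, 10.18 and 10.13 in the controls, 9.90, 9.17 and 9.23 in the non-malignant samples and 10.18, 9.10 and 7.94 in the tumors. All 3 non-malignant samples lay below all 3 controls, and the tumors spread from the control level to the lowest value of all. Neither difference passed (-0.73 ± 0.46, adjusted p = 0.626, and -1.09 ± 0.46, adjusted p = 0.139). Without tumor 1 the tumor difference was -1.64 and passed (adjusted p = 0.00834). The second Abcg1 probe set read 8.80, 8.98 and 8.73 in the controls, 7.51, 7.15 and 7.0 in the non-malignant samples and 8.67, 6.91 and 5.94 in the tumors, with differences of -1.62 (adjusted p = 0.242) and -1.66 (adjusted p = 0.0808). Both probe sets thus put tumor 1 close to the controls and tumor 3 lowest.

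Mylip, the LXR-induced ubiquitin ligase that marks lipoprotein receptors for destruction, was at 9.22, 10.33 and 9.15 in the controls, 9.03, 9.30 and 9.20 in the non-malignant samples and 8.95, 8.01 and 7.50 in the tumors. All 3 tumors lay below the other 6 arrays. The tumors were 1.41 below the controls (log2 difference -1.41 ± 0.40, adjusted p = 0.0394), while the non-malignant difference of -0.39 did not pass (adjusted p = 0.849). The tumor call was kept in only 1 of the 9 fits without 1 array, that without tumor 1; in the other 8 the adjusted p was 0.059 to 0.13, and without control 2, its highest array, the difference was -1.03. Nr1h3, which encodes LXR alpha, lay near the 40th percentile on every array (4.79 to 5.42) and differed by -0.12 and 0.17 from the controls, neither of which passed.

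**Figure D4:**
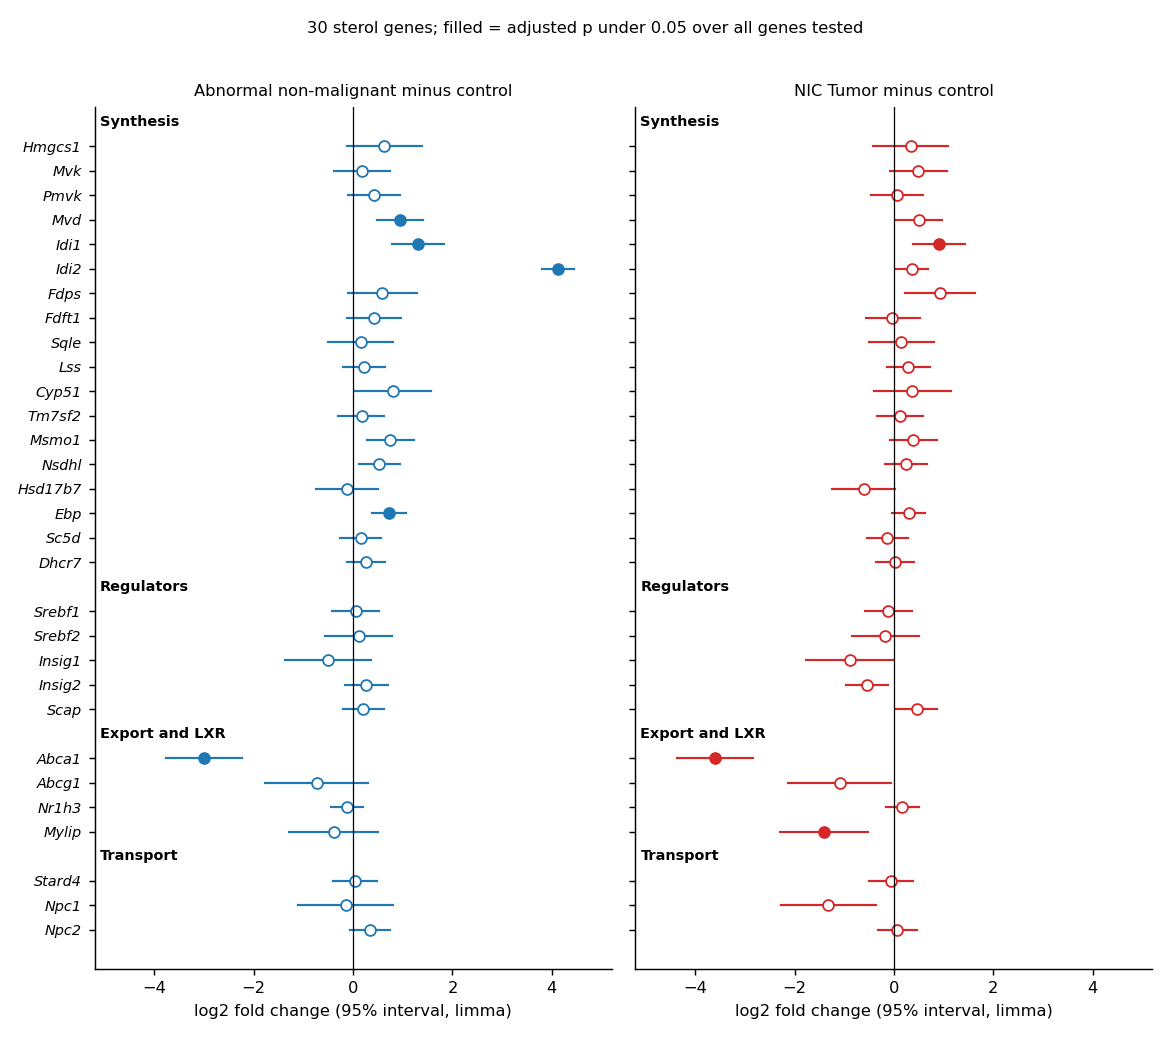
Log2 fold change with its 95% interval (horizontal axis; limma, 3 arrays per group) of the 30 measured genes by role, for non-malignant samples over controls (left) and tumors over controls (right), with filled points where the adjusted p was under 0.05. Synthesis points lie mostly right of 0 with Idi2 at 4.12, and Abca1 is at -3.0 and -3.60.

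Of the storage and transport genes, 0 of 3 were called in each of the 3 comparisons (0, 1 and 1 at an unadjusted p under 0.05). In these comparisons 3.53%, 15.7% and 4.23% of all genes were called, so a count of 0 among 3 genes is near the background. Of all 13288 genes tested, 1765, 4277 and 3442 had an unadjusted p under 0.05 in limma. Npc1, which lifts cholesterol out of lysosomes, was at 6.42, 7.45 and 5.66 in the controls, 6.46, 6.36 and 6.27 in the non-malignant samples and 5.87, 5.09 and 4.62 in the tumors. All 3 tumors lay below all 3 non-malignant samples, but the tumor differences of -1.32 from controls (adjusted p = 0.0641) and -1.17 from non-malignant samples (0.13) did not pass. Its partner Npc2 differed by 0.34 and 0.07 from the controls, and Stard4, a sterol carrier, by 0.04 and -0.06.

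Other sterol genes went both ways. Of 37 further genes of sterol handling 29 were tested; 1 rose and 0 fell in the non-malignant samples (2.87% and 0.655% of all genes), and 4 rose and 4 fell in the tumors (8.49% and 7.19% of all genes). Their medians were 0.14 and 0.06, beside 0.01 and 0.06 over all genes. Gpr183, the receptor for oxysterols that guides lymphocytes, rose by 3.81 ± 0.53 in the non-malignant samples (adjusted p = 0.00333), from 5.75, 5.63 and 5.54 in the controls to 8.87, 9.85 and 9.61. Its tumor values of 8.36, 6.08 and 8.17 also lay above all controls. In the tumors Gramd1a, which carries sterol from the plasma membrane to the endoplasmic reticulum, fell by 1.45 on the log2 scale (difference -1.45 ± 0.27, adjusted p = 0.00947), and was also called lower against the non-malignant samples (-1.34, adjusted p = 0.0336). Tmem97, a sterol-regulated membrane protein, was 1.21 higher in the tumors than in the controls (adjusted p = 0.0203), and Stard3, a late endosomal sterol carrier, differed by -0.65 (adjusted p = 0.0208).

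Of 19 fatty acid genes tested, the other branch under Srebf control, 5 rose, 1 fell and 13 did not pass in the tumors, where 8.49% of all genes were called higher and 7.19% lower. In the non-malignant samples 2 rose, 0 fell and 17 did not pass, against 2.87% and 0.655% of all genes. The medians were 0.31 and 0.05, beside 0.06 and 0.01 over all genes, and the difference between the conditions was not tested for this list. Fasn, fatty acid synthase, was at 8.72, 8.13 and 8.49 in the controls, 9.68, 9.18 and 9.03 in the non-malignant samples and 9.82, 10.34 and 10.25 in the tumors. The 3 groups did not overlap, and the tumors exceeded the controls by 1.69 ± 0.24 (adjusted p = 0.00259); the non-malignant difference of 0.85 did not pass (adjusted p = 0.105). Acaca, the carboxylase that supplies malonyl-CoA, rose by 1.17 in the tumors (adjusted p = 0.00645) and by 0.89 in the non-malignant samples (adjusted p = 0.0419). Aacs, which activates acetoacetate for lipid synthesis, rose by 0.88 in the tumors (adjusted p = 0.0225), and Mid1ip1, a partner of Acaca, by 0.73 in the non-malignant samples (adjusted p = 0.0208). Gpam, the first enzyme of glycerolipid synthesis, was the 1 gene of this list called between tumors and non-malignant samples, 0.70 higher (adjusted p = 0.0479). Of all genes 1.53% were called higher in that comparison, and 4.23% in either direction.

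Marker genes of other cells were read beside these results, as log2 of the summed level of each list. The 11 measured T cell markers of 13 listed, all above the 40th percentile on all 9 arrays, summed to 15.83 to 16.05 in the controls, 15.71 to 15.72 in the non-malignant samples and 14.59 to 15.35 in the tumors. Macrophages are rich in Abca1. The 17 macrophage markers summed to 9.55 to 9.62, 9.63 to 9.73 and 9.77 to 10.24 in the same order. Of these 17 markers 8 exceeded the 40th percentile on all 9 arrays, while Cd163 stayed below it on all 9. Of the 11 macrophage markers tested, 3 (C1qa, C1qb and C1qc) were called higher and 0 lower in the tumors against the controls (8.49% and 7.19% of all genes). In the non-malignant samples 0 of the 11 macrophage markers were called, beside 3.53% of all genes. Of the 11 T cell markers, 6 were called lower and 0 higher in the tumors against the controls. Cd4 was among the 6, Cd3e and Cd8a were not. In the non-malignant samples 1 T cell marker was called higher and 0 lower (2.87% and 0.655% of all genes). The 8 measured granulocyte markers of 9 listed summed to 8.73 to 8.96 in the controls, 9.88 to 9.96 in the non-malignant samples and 8.82 to 10.66 in the tumors. The 5 measured erythroid markers of 6 listed summed to 8.44 to 8.55, 9.08 to 9.30 and 8.98 to 10.72, and the 6 measured B cell markers of 7 listed to 8.64 to 9.12, 8.04 to 8.61 and 8.14 to 8.92. The 9 stromal markers overlapped between all groups, at 9.64 to 9.93, 9.72 to 9.87 and 9.80 to 10.41. The part of these cells in the sterol genes was not tested.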

How the data were processed

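The deposited table holds log2 values of 45101 Affymetrix probe sets on 9 arrays; the log2 base was read from the values (2.68 to 14.57). Per the labels' protocols, RNA was taken with TRIZOL and RNeasy and amplified to biotin-labelled cRNA, and a core facility processed the arrays; the methods of background correction, normalization and summarization are not given in the sources used here. Of the probe sets, 34945 carry 1 gene symbol in the platform annotation, 932 several and 9160 none, and 64 are controls.

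Tables were read with Python 3.11.15 and pandas 2.3.3. All 9 arrays entered 1 linear model with group means in R 4.3.3 and limma 3.58.1 (eBayes with a trend; 6 residual and 3.6 prior degrees of freedom), two-sided. The fit was also run on simulated data with independent normal values on each array. These hold no near-alike pair such as non-malignant 2 and 3 and no array that stands apart from its group. They therefore cannot show how the fit fares with such arrays. An exact permutation test of 3 against 3 cannot go below 0.1. Intervals are 95% intervals of the fit, and ± gives its SE. "Fold" is 2 to the power of the log2 difference.

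Given array by array are the members called in any comparison, the regulators and the export genes. Named of the 2 wider lists (sterol, fatty acid) are the 3 called genes with the smallest adjusted p per comparison, most by their difference alone; values of other genes were chosen after they were seen. Members, lists and rules were chosen with earlier results of these data known. Alternatives were quantile and median scaling, other filters, other probe sets, other variance models, only the groups compared, a replicate block, non-malignant 2 and 3 as 1 sample, and leaving out each array. The no-filter fits of Idi2 and the second probe sets were added after seeing the data.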

Additional observations from a re-analysis of the deposited data

How the results depend on the processing

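The medians of the synthesis and export genes kept their sign under every alternative run. Synthesis medians ran from 0.29 to 0.61 for non-malignant over control and from 0.14 to 0.37 for tumor over control. The medians of both lists moved by less than the larger SD of the array medians within a group. Leaving out 1 of 3 arrays can hardly move a median that far, so those fits could not show that the medians are stable. Counts of calls did move. For all genes, non-malignant against control gave 469, with array weights 2420, with only the groups compared 1114 and with non-malignant 2 and 3 as 1 sample 208, and 205 to 708 without single arrays (lowest without non-malignant 2, highest without tumor 1). Tumor against control gave 2084, with array weights 4884 and with only the groups compared 859, and 926 to 4119 without single arrays (lowest without control 2, highest without tumor 1). Tumor against non-malignant gave 562, then 5698, 108 and, with the pair as 1 sample, 66, and 53 to 3399 without single arrays (lowest without non-malignant 3, highest without tumor 1).

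Synthesis genes called, non-malignant against control, numbered 4, but 2 after quantile normalization, 8 with array weights and 0 with the pair as 1 sample, and 0 to 4 without single arrays. For tumor against control the count was 1, but 0 with the mean of all probe sets, with only the groups compared and with the pair as 1 sample, 5 with array weights, and 0 to 3 without single arrays. For tumor against non-malignant it was 1, but 6 with array weights and 0 with the pair as 1 sample, and 0 to 1 without single arrays; the zeros arise because Idi2 then misses the filter. Export genes called numbered 1, 2 and 0 in the 3 comparisons. They were 2, 3 and 1 with array weights, and for tumor against control 1 with no filter, with only the groups compared and with the pair as 1 sample, and 1 to 3 without single arrays (0 to 1 for tumor against non-malignant).

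Same-numbered arrays of different groups did not all deviate together (correlations -0.05 to 0.22, and control 2 correlated best with non-malignant 3, at 0.21), so the numbers were not taken to pair samples. With the replicate number as a block, 287 genes were called in tumor against non-malignant and 2 synthesis genes in non-malignant against control (Mvd and Ebp lost, adjusted p = 0.0801 each), Insig2 was lost in tumor against non-malignant (0.0738), and the other counts of calls stayed within 1.5 times.

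Small differences changed sign. For non-malignant against control, Srebf1 was -0.03 with quantile and -0.06 with median scaling, -0.18 with array weights, -0.09 without control 2 and -0.13 without non-malignant 1. Srebf2 was 0.00 to 2 decimals with median scaling, -0.04 with the mean of probe sets, -0.12 with array weights and -0.26 without control 2. For tumor against control without single arrays, Srebf1 ran from -0.25 to 0.01 (without control 1) and Srebf2 from -0.53 to 0.01 (without control 1 or 3). For tumor against non-malignant, Abcg1 ran from -0.91 to 0.21 and Insig1 from -0.61 to 0.03 without single arrays (highest without tumor 3), Srebf1 from -0.32 to 0.02 (without non-malignant 1), Insig1 was 0.14 and Srebf2 0.09 with array weights, and Mvd 0.02 with the mean of probe sets. On second probe sets the signs turned for Insig2 (-0.02), Scap (-0.20) and Srebf2 (-0.18) in non-malignant against control, Scap (-0.31) in tumor against control, and Mvd (0.48), Scap (-0.11) and Srebf2 (0.11) in tumor against non-malignant. The causes were not tested. Dim probe sets such as those of Idi2 in controls and tumors and of Abca1 in tumors limit fold changes to bounds.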

Other observations

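Secondary probe sets of the sterol genes, 23 of them above the 40th percentile on at least 3 arrays, had the sign of the main probe set in 16 cases for non-malignant against control, 14 for tumor against control and 17 for tumor against non-malignant. Fdft1, which makes squalene, differed by 0.42 on its main probe set and by -0.12 on another in non-malignant against control. Hsd17b7, a ketosteroid reductase of the pathway, differed by -0.61 on its main and by 0.25 on another probe set in tumor against control, and Npc2 by 0.07 and -0.91.

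Lipa, the lysosomal lipase that frees cholesterol from its esters, was at 10.64, 11.36 and 10.45 in the controls, 12.16, 12.24 and 12.22 in the non-malignant samples and 11.72, 9.63 and 9.01 in the tumors. All 3 non-malignant samples lay above all other arrays, but neither the difference of 1.39 from the controls (adjusted p = 0.313) nor that of the tumors from the non-malignant samples (-2.09, adjusted p = 0.0691) passed limma's test with Benjamini-Hochberg adjustment. Ggps1, which makes geranylgeranyl diphosphate for protein prenylation, was at 8.71, 8.83 and 8.90 in the controls and 8.28, 8.37 and 7.34 in the tumors, a difference of -0.82 (adjusted p = 0.0616). Both genes were picked after their values were seen. Control 2, the array with the lowest synthesis median, had 8.69 for the Y-linked Eif2s3y, against at most 4.18 elsewhere, and 10.27 for Xist, against at least 12.38 elsewhere.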
